A study of Arabidopsis thaliana with 6 samples.

Results

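A set of 7 genes that store iron in Arabidopsis thaliana seeds or move it across the vacuole membrane was read in fresh seeds of wild-type Arabidopsis, accession Columbia-0 (Col-0; 3 libraries), and of the asf1a1b mutant (also 3), whose ASF1A and ASF1B genes, both coding for the histone chaperone ASF1, are mutated. The members were taken by name: the ferritin genes FER1, FER2, FER3 and FER4, the vacuolar iron importer gene VIT1 and the vacuolar metal exporter genes NRAMP3 and NRAMP4, 7 of the 32833 genes in the deposited table. Both genotypes share the Columbia background as far as the labels say, seeds were collected fresh, and the labels name neither the mutant alleles nor separate plants or harvests for the 3 libraries, so p-values measure the spread between these libraries, which may be technical. The growth notes also mention cold stratification without saying if the sequenced seeds underwent it.

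Iron in a dry seed has to last the seedling until its root can take it up from soil. In the Arabidopsis embryo most of it lies in vacuoles around the provascular strands, where VIT1 loads it during seed filling, and NRAMP3 and NRAMP4 export it on germination. Seedlings that lack both NRAMP genes arrest early when iron is scarce. Ferritins are protein cages, carried to plastids, that hold iron in a form that does not feed oxidative damage. FER2 is the ferritin known from seeds, and FER1, FER3 and FER4 are the ferritins of leaves and flowers, with FER4 found in mitochondria too.

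Whether a read can be given to the right family member depends in part on the coding sequences. Some of the longest runs that family members share in them are therefore shown. Untranslated parts of the exons were not compared. Coding sequences were cut from the TAIR10.1 genome by the RefSeq annotation and aligned in pairs. The ferritins were 71.5% to 79.8% identical over aligned bases, FER3 and FER4 most so, and NRAMP3 and NRAMP4 74.5%. The longest stretch without a difference was 32 bases for FER3 and FER4, which starts at base 445 of the FER3 coding sequence and base 451 of that of FER4. FER2 shared no more than 17 bases with another ferritin, and NRAMP3 and NRAMP4 shared 23.
FER3 and FER4: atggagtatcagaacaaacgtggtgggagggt
FER2 and FER4: atggagtatcagaacaa
NRAMP3 and NRAMP4: cctctttgggctggtgttgttat
The read length is not given in the sources used here.

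Values are TPM, a transcript abundance corrected for gene length and library size, that the authors rescaled between libraries (rescaled TPM). Being per gene length, they can be set side by side between genes. The reads recovered per library ranged from 44306635 to 47993631 in the wild type and from 42771358 to 56017453 in the mutant. The targeted genes were low in the mutant. ASF1A went from 16.7 ± 1.23 in the wild type to 2.33 ± 0.237 rescaled TPM there, and ASF1B from 2.97 ± 1.21 to 0.256 ± 0.0902 (mean ± SD over 3 libraries). Embryo maturation markers were abundant in each library, 7 genes summing to 75576 to 119232 in Col-0 and 77255 to 102829 in asf1a1b. Of the 3 endosperm markers, EPR1 was between 6904 and 11131. The others were very low, ZOU at 0 to 0.101 and FIS2 at 0.086 to 0.363, so the endosperm list was not high as a whole. Seed coat markers were low, 7 genes summing to 1.76 to 3.01 in Col-0 and 6.03 to 10.1 in asf1a1b. The 6 green tissue markers summed to 20.1 to 33.1 in Col-0 and 61.0 to 106.3 in asf1a1b, most of it the Rubisco small subunit gene RBCS1A.

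**Figure D1:**
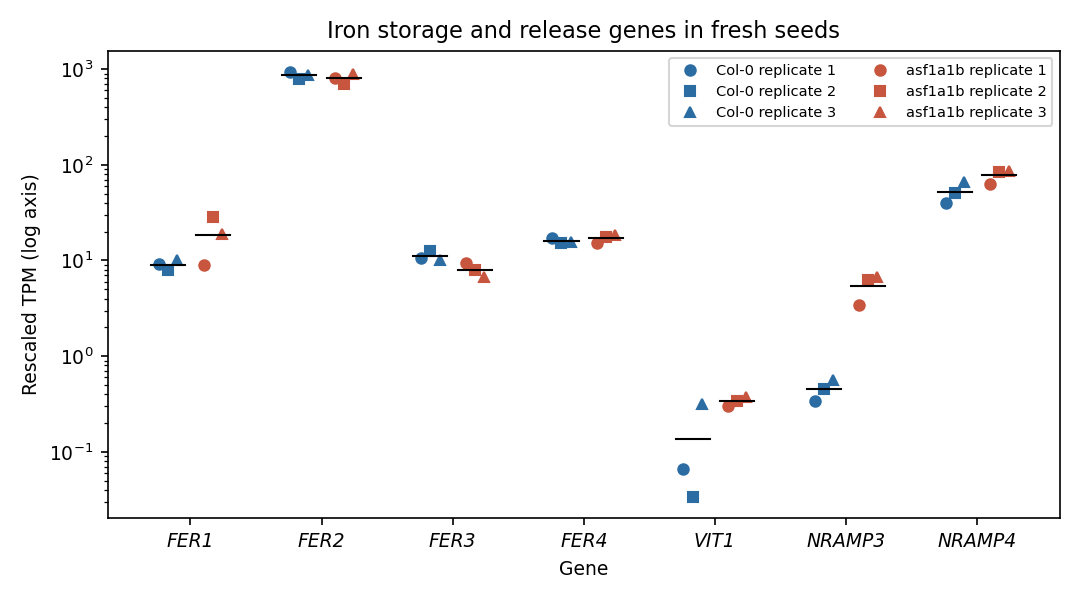
Level of each member in each library, in rescaled TPM on a log axis. Symbols are libraries (circle, square and triangle for replicates 1, 2 and 3), blue for Col-0 and red for asf1a1b, and black bars are group means. FER2 lies between 708 and 935 in all 6 libraries, and NRAMP3 is the member whose groups lie farthest apart.

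FER2 was by far the most abundant member. In order of replicate number, its level was 935, 791 and 872 rescaled TPM for Col-0 and 799.5, 708 and 894 for asf1a1b, from 27183 to 36826 reads per library. All values by library below keep that order. The groups overlapped, with the highest value in Col-0 replicate 1 and the lowest in asf1a1b replicate 2. Among the 32548 nuclear genes with a known exon length it ranked between 109 and 134 in every library. Wild-type seeds averaged 866 ± 72.5 and mutant seeds 801 ± 93.2 (SD, n = 3). On the log2(value + 1) scale the difference, mutant less wild type, was -0.12 with a standard error of 0.16 and a 95% interval of -0.48 to 0.25, and it did not pass (limma adjusted p = 0.605, Benjamini-Hochberg over 14663 genes). FER2 (AT3G11050) occupies 3463477 to 3465506 of chromosome 3 (TAIR10.1, plus strand, 8 exons), and its first 8 bases overlap ENGase85B on the same strand, which itself averaged 0.555 in the wild type and 1.15 in the mutant.

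The other ferritins were minor. FER2 made up 96.0% ± 0.267 of the summed ferritin level of wild-type seeds and 94.7% ± 1.58 of that of mutant seeds (SD, n = 3), and the lowest share, 93.0%, was in asf1a1b replicate 2. The summed level of the 4 genes was 902 ± 73.2 for Col-0 against 844 ± 88.9 for the mutant (SD, n = 3), and the libraries of the genotypes overlapped. Bulk values like these cannot tell fewer cells of a type from less RNA per cell.

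FER1 (AT5G01600; chromosome 5, 227953 to 230051, minus strand, 8 exons), the iron-induced leaf ferritin, was 9.16, 7.97 and 10.06 rescaled TPM in the Col-0 replicates and 8.935, 28.3 and 18.7 in those of asf1a1b. Replicates 2 and 3 of the mutant stood above every Col-0 library, while mutant replicate 1 lay among them. The means were 9.06 ± 1.05 and 18.7 ± 9.71 (SD, n = 3), a ratio of 2.06, and the difference, 0.84 with a standard error of 0.35 on the log2 scale, did not pass (limma adjusted p = 0.107). Leaving out asf1a1b replicate 1 made it 1.26, which passed (limma adjusted p = 0.00518). FER1 passed in none of the other 15 alternative fits (highest limma adjusted p 0.286). The summed level of the 6 green tissue markers was 20.1, 33.1 and 29.1 in the Col-0 replicates and 61.0, 96.6 and 106.3 in those of asf1a1b. Of these markers, 3 were highest in asf1a1b replicate 2, the library with the most FER1 (LHCB2.1, LHCB3 and GLDP1), 2 in asf1a1b replicate 3 (RBCS1A and LHCB1.1) and 1 in Col-0 replicate 1 (RCA). In asf1a1b replicate 1, where FER1 was within the Col-0 range, the sum was above that of every Col-0 library. The part of green tissue transcripts in the FER1 values was not tested. In the authors' deposited table FER1 is at 1.03 on the log2 scale with an adjusted p of 0.017 and is not marked as up or down. No gene marked there is below 1.5 in absolute log2 fold change, and 4557 genes with an adjusted p under 0.05 carry no mark, so the absence of a mark does not mean a high p. A gene on the opposite strand, AT5G01595, overlaps FER1 over 1334 bases. It averaged 0.921 in the wild type and 0.66 in the mutant, and with the strand setting unknown its reads cannot be told from those of FER1.

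FER3 (AT3G56090; chromosome 3, 20813904 to 20816035, minus strand, 8 exons) had lower values in the mutant. It was 10.7, 12.5 and 10.1 rescaled TPM for Col-0 and 9.52, 7.92 and 6.66 for asf1a1b, so that every mutant library lay below every Col-0 library. The log2 difference of -0.43, with a standard error of 0.15, did not pass (limma adjusted p = 0.0679). With the replicate number as a block the adjusted p was 0.0415 in limma, under median-of-ratios scaling it was 0.041, and without asf1a1b replicate 1 it was 0.0299. FER3 did not pass in the other 13 of 16 alternative fits (highest limma adjusted p 0.229). In the authors' deposited table its log2 value is -0.49 with an adjusted p of 0.0444, under 0.05, and no mark.

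FER4 (AT2G40300; chromosome 2, 16831109 to 16833294, minus strand, 8 exons) was 17.4, 15.4 and 15.6 rescaled TPM for Col-0 and 15.2, 17.4 and 18.7 for asf1a1b. Its groups overlapped, and the log2 difference of 0.08, with a standard error of 0.12 and a 95% interval of -0.20 to 0.35, did not pass (limma adjusted p = 0.66). Its last 118 bases are shared with AT2G40290 on the same strand, a gene of similar level (16.5 for Col-0 and 18.5 for the mutant). Among the 3 minor ferritins the order of the means was FER4, FER3, FER1 in Col-0, each above the next in all 3 libraries. In asf1a1b it was FER1, FER4, FER3, and there FER1 and FER4 overlapped, with FER1 the higher in 2 of 3 libraries. The ratio of FER1 to FER3 was 0.852, 0.638 and 0.999 in the Col-0 replicates and 0.939, 3.58 and 2.81 in those of asf1a1b.

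The window before FER3 is shown for a motif it holds. Of all 27437 windows of 250 bases before a protein-coding gene start, 6.49% held the G-box CACGTG, a site bound by basic helix-loop-helix and bZIP factors. FER3 held it 76 bases before the annotated start, while the windows of FER1, FER2, VIT1, NRAMP3 and NRAMP4 held none. The shorter core ACGTG, found in abscisic acid response elements, overlaps the G-box on both strands and was held by 22.9% of all windows. FER1 had it once, 10 bases before the start, outside a G-box. The RY element CATGCA (8.43% of all windows) and GNATATNC, the site of phosphate starvation factors (5.46%), were in none of these members' windows, both strands read. The sequence is the genome's, 5′ to 3′ on the gene's strand, from RefSeq TAIR10.1 at chr3:20816036-20816285, minus strand, with the G-box in capitals.
FER3: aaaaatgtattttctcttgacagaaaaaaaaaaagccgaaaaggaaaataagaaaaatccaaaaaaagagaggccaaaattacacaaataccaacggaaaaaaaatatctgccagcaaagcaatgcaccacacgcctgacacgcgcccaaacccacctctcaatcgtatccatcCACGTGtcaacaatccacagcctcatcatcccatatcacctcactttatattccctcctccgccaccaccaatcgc
A match is a run of letters and not a measured binding site.

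**Figure D2:**
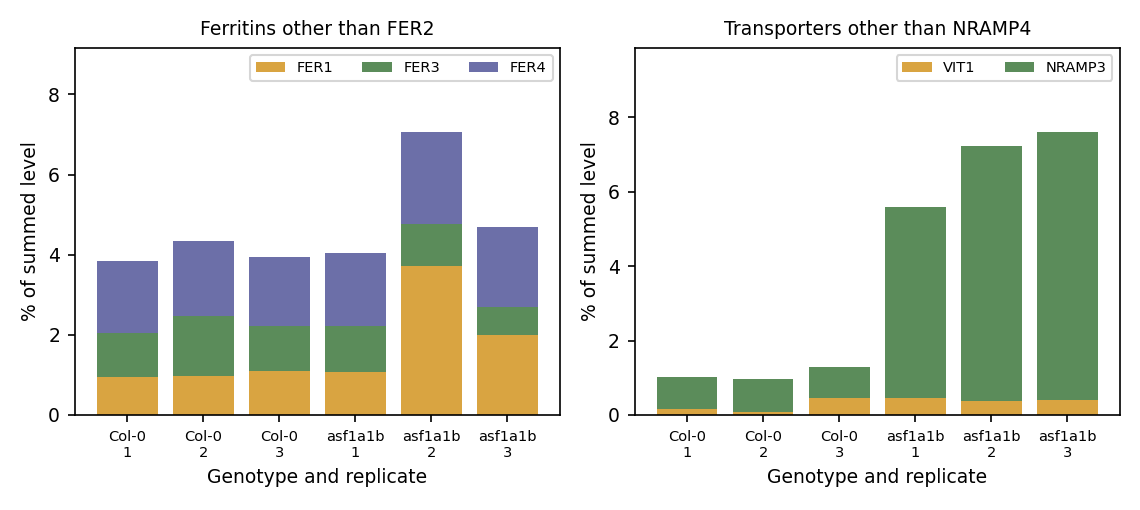
Stacked bars show the share, in % of the summed level, held by the ferritins other than FER2 (left) and by the transporters other than NRAMP4 (right), for each library; the rest of each sum is FER2 or NRAMP4. NRAMP3 is 5.14% to 7.19% of its sum in asf1a1b and 0.827% to 0.893% in Col-0.

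Of the vacuolar transporters, NRAMP3 rose. NRAMP3 (AT2G23150; chromosome 2, 9856149 to 9858778, minus strand, 4 exons) was 0.337, 0.453 and 0.559 rescaled TPM in the Col-0 replicates and 3.42, 6.29 and 6.71 in those of asf1a1b. Every mutant library stood above every Col-0 library by several times. The values rest on 23, 30 and 40 recovered reads in Col-0 and on 204, 533 and 485 in asf1a1b. The means, 0.45 ± 0.111 and 5.47 ± 1.79 (SD, n = 3), gave a ratio of 12.2, which ranged from 10.8 to 14.5 when 1 library was left out. On the log2 scale the rise was 2.12 with a standard error of 0.23 (limma adjusted p = 0.00141), and the gene passed in all 15 alternative fits that tested it (limma adjusted p 0.0005 to 0.0112). With its Col-0 mean below 1, NRAMP3 reached the mean of 1 required for a test only through its asf1a1b values. It also passed with no filter (limma adjusted p = 0.00509), and a filter at a mean of 5 removed it. The added 1 on the log scale holds the change of such a low gene down. With 0.1 in its place the log2 fold change was 3.30. The authors' deposited table gives 3.59 with an adjusted p of 7.13e-21 and marks NRAMP3 as up, 1 of the 6 members it lists, where it marks 8.76% of its 15257 genes as up or down. No other annotated gene overlaps NRAMP3.

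NRAMP4 (AT5G67330; chromosome 5, 26861266 to 26863897, plus strand, 3 exons), the homologue that does the same work, was much more abundant. It was 39.4, 50.3 and 66.75 rescaled TPM for Col-0 and 62.8, 85.1 and 86.2 for asf1a1b. The groups overlapped by 1 library each, Col-0 replicate 3 lying above asf1a1b replicate 1. The means were 52.1 ± 13.8 and 78.0 ± 13.2 (SD, n = 3), a ratio of 1.5, and the log2 difference of 0.59, with a standard error of 0.21, did not pass (limma adjusted p = 0.0693). With the replicate number as a block it did (limma adjusted p = 0.00999), each mutant library being above the Col-0 library of its own number. No label names a shared batch, and which libraries pair for replicates 2 and 3 is not settled. NRAMP4 also passed without Col-0 replicate 3 (limma adjusted p = 0.0304) and without asf1a1b replicate 1 (limma adjusted p = 0.0398). It did not pass in the other 13 of 16 alternative fits (highest limma adjusted p 0.213). The authors' deposited table has it at 0.56 on the log2 scale with an adjusted p of 0.0483, under 0.05, and no mark.

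The ratio between the exporters did not overlap between the genotypes. This ratio and the NRAMP3 share largely restate the rise of NRAMP3, and in Col-0 they rest on its 23 to 40 reads per library. NRAMP4 exceeded NRAMP3 117, 111 and 119 times in the Col-0 replicates and 18.4, 13.5 and 12.8 times in those of asf1a1b. Of the summed level of VIT1, NRAMP3 and NRAMP4, NRAMP3 held 0.855% ± 0.0341 in the wild type and 6.40% ± 1.102 in the mutant (SD, n = 3). The sum itself was 39.8, 50.7 and 67.6 for Col-0 and 66.5, 91.7 and 93.2 for asf1a1b, and its groups overlapped. NRAMP3 is shown with the 250 bases before its start because it alone of the members passed the test. The window lies at chr2:9858779-9859028 on the minus strand of TAIR10.1, has 24% G and C, and none of the motifs searched is in it, so no letter is in capitals.
NRAMP3: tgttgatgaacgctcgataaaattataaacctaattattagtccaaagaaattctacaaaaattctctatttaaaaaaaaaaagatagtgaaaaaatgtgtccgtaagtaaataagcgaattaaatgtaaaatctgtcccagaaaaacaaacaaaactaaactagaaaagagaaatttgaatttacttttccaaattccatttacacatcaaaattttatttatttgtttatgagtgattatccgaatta
The windows before FER2 and NRAMP4 run into a neighbouring gene and are not printed.

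VIT1 (AT2G01770; chromosome 2, 334663 to 336462, minus strand, 4 exons) was close to the limit of these libraries. Col-0 had 0.066, 0.034 and 0.313 rescaled TPM, from 2, 1 and 10 reads, and asf1a1b 0.299, 0.343 and 0.371, from 8, 13 and 12 reads. Col-0 replicate 3 lay among the mutant libraries and the other Col-0 libraries below them. Its mean over the 6 libraries, 0.238, was below the level of 1 required for a test. With no such filter its log2 fold change was 0.24 (limma adjusted p = 0.121). It overlaps RR14 on the opposite strand over 98 bases, a gene that rose from 1.02 to 2.34 (limma adjusted p = 0.0346), and without a known strand setting the 1 to 13 reads of VIT1 cannot be told from those of RR14 in that stretch.

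**Figure D3:**
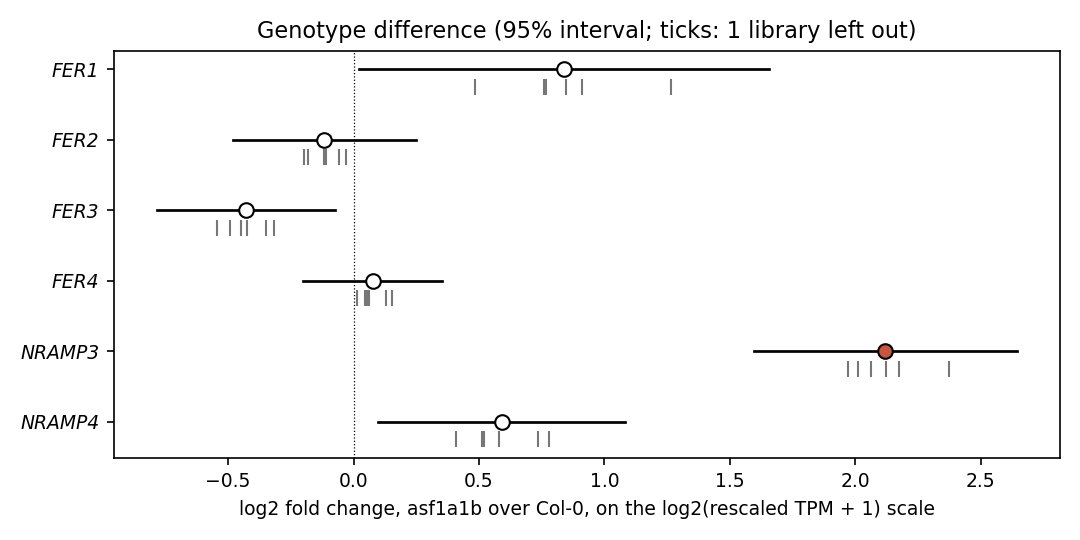
Log2 fold change of the 6 tested members, asf1a1b over Col-0, on the log2(rescaled TPM + 1) scale. Points are the fitted values (filled where limma adjusted p is under 0.05), lines the 95% intervals without adjustment for multiple tests, and ticks below each line the values with 1 library left out. NRAMP3, at 2.12, is the filled point.

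Of the 6 members tested, 1 rose, 0 fell and 5 did not pass, where 30.6% of all 14663 tested genes passed and 16.1% passed upwards. In this fit the upward count of members is therefore near the share of the whole table. With the replicate number as a block 3 of the 6 passed, NRAMP3 and NRAMP4 upwards and FER3 downwards, where 39.7% of all tested genes passed. In the authors' deposited comparison, whose test is not named, 4 members had an adjusted p under 0.05 and only NRAMP3 was marked. There 4557 of 15257 genes had such an adjusted p and no mark. A further 1336 genes were marked, at adjusted p up to 0.0957 in that comparison. The share of all genes under 0.05 was not counted, so the 4 members cannot be set against it. The groups did not overlap for NRAMP3 and FER3, 2 of the 6, against 47.5% of all tested genes. The median log2 fold change of the 6 was 0.33, beside 0.01 over all tested genes. That median lies midway between FER4 and NRAMP4, neither of which passed in the main fit. It also counts NRAMP3, which was tested only through its asf1a1b values. The order of the levels in Col-0 was FER2, NRAMP4, FER4, FER3, FER1, NRAMP3 and VIT1, each above the next in 3 of 3 libraries with no overlap of their ranges. In asf1a1b the order was FER2, NRAMP4, FER1, FER4, FER3, NRAMP3 and VIT1, where FER1 and FER4 overlapped, and so did FER3 and NRAMP3.

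The genes with the most similar profiles were found by the root-mean-square difference between log2(value + 1) profiles, each less its own mean, over the 6 libraries and 9753 other genes with a mean of at least 5 (9754 for VIT1). NRAMP3, with a mean below 5, was outside the rule for this search. For FER1 they were ERF104 (a difference of 0.114 on the log2 scale), an ethylene response factor gene, and RVE1 (0.136), a clock-related MYB gene, where the median over all genes was 0.667. ERF104 was 12.3, 8.65 and 10.3 rescaled TPM for Col-0 and 9.97, 30.6 and 21.6 for asf1a1b, with the same high library as FER1. For NRAMP4 they were AT4G35750 (0.044) and AT3G27570 (0.0563), against a median of 0.452. FER2 was most like PIP (0.0351) and RPS1 (0.0403), and FER4 most like AT4G32600 (0.0328) and STP4 (0.036), against medians of 0.259 and 0.254. FER3 had AT3G61670 (0.0533) and AT3G44670 (0.0636), and VIT1, with its few reads, MEE34 (0.0463) and PPX2 (0.0507), against medians of 0.329 and 0.282. The added 1 flattens the VIT1 profile, at 0.034 to 0.371 rescaled TPM, so its small differences say little about likeness. All the likenesses are over libraries of 2 genotypes and carry no test.

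**Figure D4:**
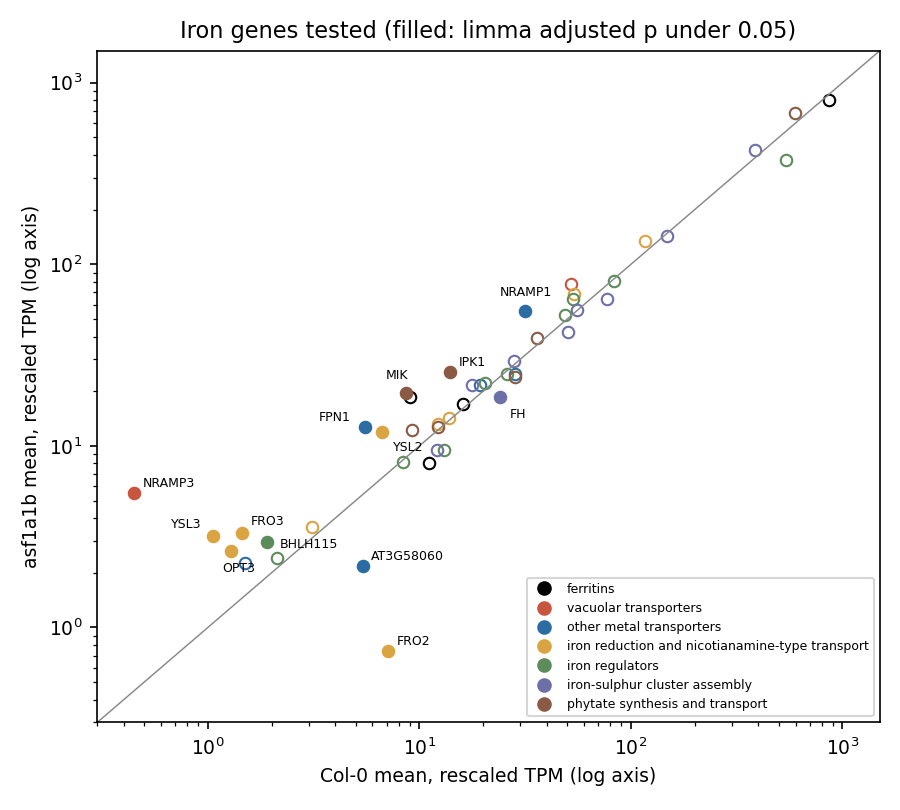
Mean level in Col-0 (x axis) against asf1a1b (y axis), both in rescaled TPM on log axes, for the tested members and the tested genes of 5 further iron and phytate lists, coloured by list. Filled points have a limma adjusted p under 0.05 and are named, and the line marks equal levels. FRO2 and AT3G58060 lie below the line and NRAMP3 farthest above it.

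Other genes that move iron and related metals were read from fixed lists. Of 15 other VIT-type, NRAMP-type, cation efflux and ferroportin genes, 6 were tested, 2 rose and 1 fell (50% called, beside 30.6% of all tested genes). FPN1 (AT2G38460), a ferroportin that exports iron from cells, rose from 5.54 ± 0.753 rescaled TPM in the wild type to 12.7 ± 1.89 in the mutant (limma adjusted p = 0.00335; errors in the lists are SD, n = 3). NRAMP1 (AT1G80830), a manganese and iron uptake transporter, rose from 31.6 ± 3.24 to 55.4 ± 14.3 (limma adjusted p = 0.0271), a call that ended without replicate 1 or 2 of Col-0 or replicate 2 or 3 of asf1a1b (highest limma adjusted p 0.11, where the log2 difference was 0.66). AT3G58060, annotated as a cation efflux family protein, fell from 5.39 ± 0.839 to 2.18 ± 0.172 (limma adjusted p = 0.00343). Of the VIT1-like genes, VTL5, AT3G43630 and AT3G43660 were listed at 0 in every library, VTL1 had 5 reads over the 6 libraries, and VTL2 had 29, 0 and 15 in the Col-0 replicates and 0, 4 and 4 in those of asf1a1b, which overlap. FPN2, below the level tested, had 41 reads in wild-type seeds and 245 in mutant seeds, summed over libraries.

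Among 20 genes of iron reduction, nicotianamine synthesis and long-distance or organelle transport, 10 were tested, 4 rose and 1 fell. That is 50% called, beside 30.6% of all tested genes. FRO2 (AT1G01580), the ferric-chelate reductase known from the root surface, fell, from 5.43, 9.14 and 6.80 rescaled TPM in the wild type to 1.16, 0.584 and 0.479 in the mutant, and its groups lay far apart. The Col-0 mean was 9.61 times that of the mutant (-2.22 on the log2 scale, standard error 0.22, limma adjusted p = 0.00127). FRO3 (AT1G23020), a mitochondrial ferric reductase, rose from 1.46 ± 0.287 to 3.31 ± 0.496 (limma adjusted p = 0.00866). The yellow stripe-like genes YSL2 and YSL3, whose family carries metals bound to nicotianamine, rose from 6.68 to 12.0 and from 1.05 to 3.18 (limma adjusted p = 0.00767 and 0.0228). OPT3, of phloem iron transport, also rose, from 1.29 to 2.62 (limma adjusted p = 0.0225), and was named after its values were seen. YSL3 and OPT3 lost their calls when replicate 2 of Col-0 or replicate 2 or 3 of asf1a1b was left out, and YSL3 also without Col-0 replicate 3 (highest limma adjusted p 0.0963 and 0.0893, at log2 differences of 0.96 and 0.65). Without Col-0 replicate 1 the ratio of means of YSL3 was 5.56 in place of 3.02. NAS1 and NAS2, nicotianamine synthase genes, were listed at 0 throughout, and IRT1, the root iron importer, had 4 reads in all.

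Of 21 regulators of the iron response, 10 were tested, 1 rose and 9 did not pass (10% called, beside 30.6% of all tested genes). BHLH115 (AT1G51070), an activator of the iron deficiency response, rose from 1.91 ± 0.368 to 2.97 ± 0.236 (limma adjusted p = 0.0483). It passed in 2 of 15 alternative fits, and in none of those without 1 library (highest limma adjusted p 0.148, at a log2 difference of 0.41). ILR3, a basic helix-loop-helix factor known to act on ferritin genes, was at 83.1 in the wild type and 81.0 in the mutant, and its partner PYE 13.1 and 9.45 (limma adjusted p = 0.846 and 0.133). BTS, an iron-binding ubiquitin ligase, was 20.3 and 22.3 (limma adjusted p = 0.679). ABI5, the abscisic acid response factor, was 541 ± 31.7 and 375 ± 140 (limma adjusted p = 0.108), and it passed without asf1a1b replicate 1 (-0.87 on the log2 scale, limma adjusted p = 0.00755).

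Iron-sulphur cluster assembly and phytate synthesis were read in the same way. Of 10 iron-sulphur cluster assembly genes, 9 were tested and 1 passed (11.1% called, beside 30.6% of all tested genes). This was the frataxin gene FH (AT4G03240), which fell from 24.0 ± 1.70 to 18.6 ± 0.141 (limma adjusted p = 0.0406). It passed in 8 of 16 alternative fits and, of those without 1 library, in the one without Col-0 replicate 1 (highest limma adjusted p 0.159, at a log2 difference of -0.29), and 100 of its bases overlap AT4G03230, a gene that rose (limma adjusted p = 0.0243). Phytate, the phosphate store of seeds, binds iron in vacuolar globoids. Of 8 phytate genes, 7 were tested and 2 rose (28.6% called, beside 30.6% of all tested genes). MIK (AT5G58730), myo-inositol kinase, rose from 8.66 ± 0.238 to 19.4 ± 2.82 and IPK1 (AT5G42810), the kinase of the last step, from 14.0 ± 2.40 to 25.6 ± 1.14 (limma adjusted p = 0.00191 for MIK, 0.00528 for IPK1). IPK1 overlaps U2AF35B on the opposite strand over 177 bases, and that gene rose too (limma adjusted p = 0.0388). MIPS2, a myo-inositol phosphate synthase, was the most abundant phytate gene, at 596 ± 71.2 and 685 ± 138 (limma adjusted p = 0.482).

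Over the 5 lists, 42 of 74 genes were tested, 9 rose and 3 fell, or 28.6% called, near the 30.6% of all tested genes. Their median log2 fold change was 0.12. Of the 6 green tissue markers, 4 were tested, 2 rose and 2 did not pass. RBCS1A rose from 16.8 ± 7.21 to 71.0 ± 21.0 and LHCB3 from 0.446 to 2.196 (limma adjusted p = 0.00581 and 0.0349). LHCB3, a light-harvesting antenna gene, lost its call without Col-0 replicate 2 or 3 or without asf1a1b replicate 3 (limma adjusted p 0.0954, 0.0898 and 0.084). It also lost it with no filter (limma adjusted p = 0.0612). Without asf1a1b replicate 2, where it was 3.83, it fell below the level tested. RCA, Rubisco activase, was 5.42 and 6.07 and GLDP1, of photorespiration, 4.74 and 6.69, both with overlapping groups (limma adjusted p = 0.636 and 0.356), while LHCB1.1 and LHCB2.1 were at 0 to 0.064 in Col-0 and 0.154 to 1.78 in asf1a1b. Of the seed coat markers only AT3G50990, a peroxidase gene, was tested, and it rose from 0.819 to 5.35 (limma adjusted p = 0.00355), a ratio of 6.53, and of 12.1 without Col-0 replicate 1. Their part in the iron gene values was not tested.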

How the data were processed

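RNA-seq libraries of fresh seeds were grouped by genotype and numbered from the sample titles. The submitters' processing notes name fastp 0.23.4, HISAT2 2.2.1 and, as the build, TAIR10. Not given in the sources used here are the counter, annotation, strand setting and the authors' test. The table of all genes that the authors deposited holds signal values named TPM. Library totals run from 915126 to 1049698, so it is TPM rescaled by an unnamed step. For 15257 genes the authors also deposited the results of their own comparison, as log2 fold changes with a raw and an adjusted p-value.

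The 14663 genes whose mean over the 6 libraries reached 1 were tested, as planned for TPM, using log2(value + 1). That mean runs over both genotypes. NRAMP3, AT3G50990 and LHCB3, each below 1 in Col-0, and FRO2, below 1 in asf1a1b, were therefore tested only through their higher group. The two-sided test was that of limma 3.58.1 (R 4.3.3, eBayes with trend), its model held genotype alone, and p-values were adjusted by Benjamini-Hochberg over all of them, with a threshold of 0.05. Ratios are of group means of deposited values. Lists are described by counts, with no set test. Named genes are the 7 members and, from each of the 5 lists, up to 4 called genes with the largest absolute change. Other list genes given with values (OPT3, ILR3, PYE, BTS, ABI5, ITPK4, MIPS2, FPN2, VTL1, VTL2, VTL5, AT3G43630, AT3G43660, NAS1, NAS2 and IRT1) were named after their values were seen. The members and lists were chosen with earlier results of these data known.

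Multiplying a value by merged exon length (RefSeq TAIR10.1, which differs from TAIR10 in the organelles) gave multiples of 1 step per library, and 99.3% to 99.4% of values under 200 reads lay within 0.1 of a whole number. Reads were recovered for 32548 genes and cover counting error only. On simulated data with 14660 genes for this comparison, the model called 66% of 100 genes changed by 1 on the log2 scale and 89% of 100 changed by 2, with 9 false calls. No other simulated gene was changed, where 30.6% of genes passed in the real fit. The simulated noise was also independent between genes. These shares therefore check the model and do not give its power on the real libraries. Of the 104 list identifiers, all 104 were in the table and 87 had their symbol in RefSeq, the others being printed as RefSeq names them. Replicates of a genotype differed by more than sampling noise (median chi-square per gene 2.18 or more per pair). Pairs that include replicate 1 differed most. In Col-0 they were at 8.44 and 11.2, against 2.18 for replicates 2 and 3. In asf1a1b they were at 8.14 and 5.92, against 3.73. Across genes, the deviations of libraries of the same number from their group means correlated at 0.427, 0.144 and 0.327 for replicates 1, 2 and 3. Each was above 0.1, the level set for using the numbers as a block. Replicate 3 of Col-0 and replicate 2 of asf1a1b correlated more strongly than either did with its own number (0.381), and replicate 2 of Col-0 with replicate 3 of asf1a1b at 0.0999. These values do not settle which libraries pair for replicates 2 and 3, and no label names a shared batch. The block is an alternative to the fit reported. Other steps ran in Python 3.11.15 (numpy 2.4.6, pandas 2.3.3, matplotlib 3.10.9). The window before FER4 is not reported here.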

Additional observations from a re-analysis of the deposited data

How the results depend on the processing

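The 6 tested members, the counts of calls and the other tested genes named were fitted under 16 alternatives (14 or 15 for genes a filter removed), and none of the 6 members changed direction. VIT1 was fitted only with no filter, shares were recomputed only with 1 library left out, and ratios between members were not recomputed. NRAMP3 passed in all 15 that tested it, with log2 fold changes of 1.97 to 3.53, and FER2 and FER4 passed in none of 16. FER3 passed under median-of-ratios scaling (-0.49) and with the replicate block (-0.43, limma adjusted p = 0.0415), and NRAMP4 with the replicate block (0.59, limma adjusted p = 0.00999). The block changed no other member's call, and with it 12 genes of the 5 lists were called, as without it, ITPK4 passing (limma adjusted p = 0.0442) and BHLH115 not (limma adjusted p = 0.0513). With 1 library left out, log2 fold changes ran from 0.48 to 1.26 for FER1, -0.54 to -0.32 for FER3 and 0.41 to 0.78 for NRAMP4. They changed sign for BTS (-0.061 to 0.26) and ILR3 (-0.082 to 0.038), neither past the threshold in any fit. FER1, FER3 and NRAMP4 passed without asf1a1b replicate 1, and NRAMP4 also without Col-0 replicate 3. Of the 16 alternatives, FER1 passed in 1, and FER3 and NRAMP4 in 3 each. Genes called over the whole table numbered 4494, 2544 with a mean of at least 5, and 1767 to 4999 with 1 library left out (the lowest being 1767 and 2346, which lack asf1a1b replicates 3 and 2, and 2122, which lacks Col-0 replicate 2). Genes called in the 5 lists numbered 12, 6 with a mean of at least 5 (fewer genes tested), and 7 to 12 with 1 library left out, 7 without either replicate 2 or without asf1a1b replicate 3. The share of upward calls over all genes was 52.6%, 43.6% under median-of-ratios scaling and 61.0% with no filter. The cause of these shifts was not tested. Depth limits VIT1, at 1 to 13 reads per library, and NRAMP3 in Col-0, at 23 to 40.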
